A study of Rattus norvegicus with 10 samples.

Results

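Mature miR-124 and miR-128, both enriched in neurons, were measured by small RNA sequencing in rat hippocampus. They were represented by 3 of the 765 mature miRNAs in the deposited table, namely miR-128-3p, miR-124-3p and miR-124-5p, which were chosen by name. The 2-VO group (5 libraries) came from Wistar rats aged 10 weeks whose 2 common carotid arteries had been occluded, a model of chronic cerebral hypoperfusion, and the sham group (5 libraries) from sham-operated Wistar rats of the same age. The labels state neither how long after the operation the tissue was taken nor whether each library is 1 animal, so the tests measure a spread between libraries that may be technical. Libraries are named by the numbers of their titles (2-VO 3, 5, 6, 7 and 8, and sham 1 to 5).

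MicroRNAs are short RNAs cut from hairpin precursors, and the strand that is kept by an Argonaute protein guides it to messenger RNAs that pair with the seed, bases 2 to 8. The other strand of the duplex is mostly lost, so a hairpin's 5p and 3p arms usually differ in level. miR-124 is the classical miRNA of differentiated neurons, whose 3p strand is the main guide and represses non-neuronal transcripts such as that of the splicing repressor Ptbp1. miR-128 appears as neurons mature and, in mice, restrains the excitability of neurons. In a bulk sample, fewer neurons and less miRNA per neuron cannot be told apart.

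Of the 3 members, miR-128-3p was matched by name to a RefSeq sequence (rat build GRCr8). It is shown with its 2 hairpins because both give the same 3p strand, so its reads cannot be divided between the genes, while each 5p arm marks one hairpin. Mir128-1 lies on the plus strand at chr13:42251884-42251965, within R3hdm1, and Mir128-2 on the minus strand at chr8:120963795-120963878, within Arpp21 and the lncRNA LOC120094269. The deposited values were made on another build, rn6, and hold no coordinates. In the mature sequences the capitals mark the seed, and in the hairpins they mark the 5p arm and then the 3p arm.
miR-128-3p: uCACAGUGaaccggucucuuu
miR-128-1-5p: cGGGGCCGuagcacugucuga
miR-128-2-5p: gGGGGCCGaugcacuguaaga
Mir128-1: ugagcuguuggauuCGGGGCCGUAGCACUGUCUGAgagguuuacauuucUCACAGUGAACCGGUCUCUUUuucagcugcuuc
Mir128-2: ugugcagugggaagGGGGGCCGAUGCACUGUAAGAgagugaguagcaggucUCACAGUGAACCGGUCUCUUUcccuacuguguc
The 5p arms have the same seed and the same base at 16 of 21 positions, counted from the 5′ end.

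Levels are given in RPM, reads per 1000000 reads of a library-wide divisor. The divisors were 13095384 to 13839174 reads in 2-VO and 13032805 to 13850400 reads in sham libraries, and the listed miRNAs summed to 69.3% ± 7.24 and 71.9% ± 4.47 of them (SD, n = 5 each). Some rows hold nearly the same values, such as let-7a-5p and miR-3596a (means of 6079 RPM each). The sum may therefore count some reads more than once, which would make these shares too high and shares of the listed RPM too low. The lowest shares, 60.3% and 64.2%, were those of 2-VO replicates 3 and 7, so levels there are also given relative to the listed RPM. A read spans a whole mature miRNA, so RPM needs no correction for length. Adapters ligate to some sequences better than to others, so an order among miRNAs is an order of reads.

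miR-128-3p was the second most abundant miRNA in each of the 10 libraries, on average at 23.9-fold the level of miR-124-3p. In 2-VO replicates 3, 5, 6, 7 and 8 it stood at 47409.5, 48981.8, 58594, 41636 and 54874 RPM. In sham replicates 1 to 5 it stood at 56636, 59973, 53605, 54397 and 49137 RPM. The groups overlapped, as for 471 of the 474 miRNAs tested (0.633% did not overlap), with 2-VO replicates 3, 5 and 7 below the lowest sham library and 0 of the 2-VO libraries above the highest. The means were 50299 ± 6612 RPM in 2-VO and 54750 ± 3993 RPM in sham libraries (SD, n = 5 each). Relative to the listed RPM it took 7.25% ± 0.521 in 2-VO and 7.64% ± 0.771 in sham libraries. On that scale 2-VO replicate 3 was no longer low, at 7.86%, while replicate 7 was still the lowest of the 10 libraries, at 6.49%.

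miR-124-3p, the guide strand of miR-124, was far less abundant in these reads, between rank 36 and rank 51 of the listed miRNAs. It stood at 1840 RPM in 2-VO replicate 3, 2556 RPM in replicate 5, 2054 RPM in replicate 6, 1690.3 RPM in replicate 7 and 2950 RPM in replicate 8. Sham replicates 1 to 5 had 1859, 2388, 2866, 2504 and 1842 RPM. Each group held both low and high libraries, and the lowest and the highest of the 10 were both 2-VO. The means were 2218 ± 524 RPM in 2-VO and 2292 ± 440 RPM in sham libraries (SD, n = 5 each). As a share of the listed RPM the group means were 0.319% ± 0.0605 and 0.319% ± 0.0574, in 2-VO and sham libraries.

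miR-124-5p, the strand that is mostly discarded, ranked between 166 and 175. Its levels were 128, 159, 157, 131 and 167 RPM in 2-VO replicates 3, 5, 6, 7 and 8, against 146, 168, 183, 152 and 149 RPM in sham replicates 1 to 5. The 2 lowest values belonged to 2-VO replicates 3 and 7, and the other 3 libraries of 2-VO lay within the sham range. The means were 148 ± 18.1 RPM in 2-VO and 160 ± 15.5 RPM in sham libraries (SD, n = 5 each). Relative to the listed RPM they were 0.0214% ± 0.00122 and 0.0222% ± 0.00138. On that scale 2-VO replicates 3 and 7 were no longer the lowest, at 0.0211% and 0.0204%. Replicate 7 was still low, with only 2-VO replicate 6 and sham replicate 5 below it (0.0202% each).

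**Figure D1:**
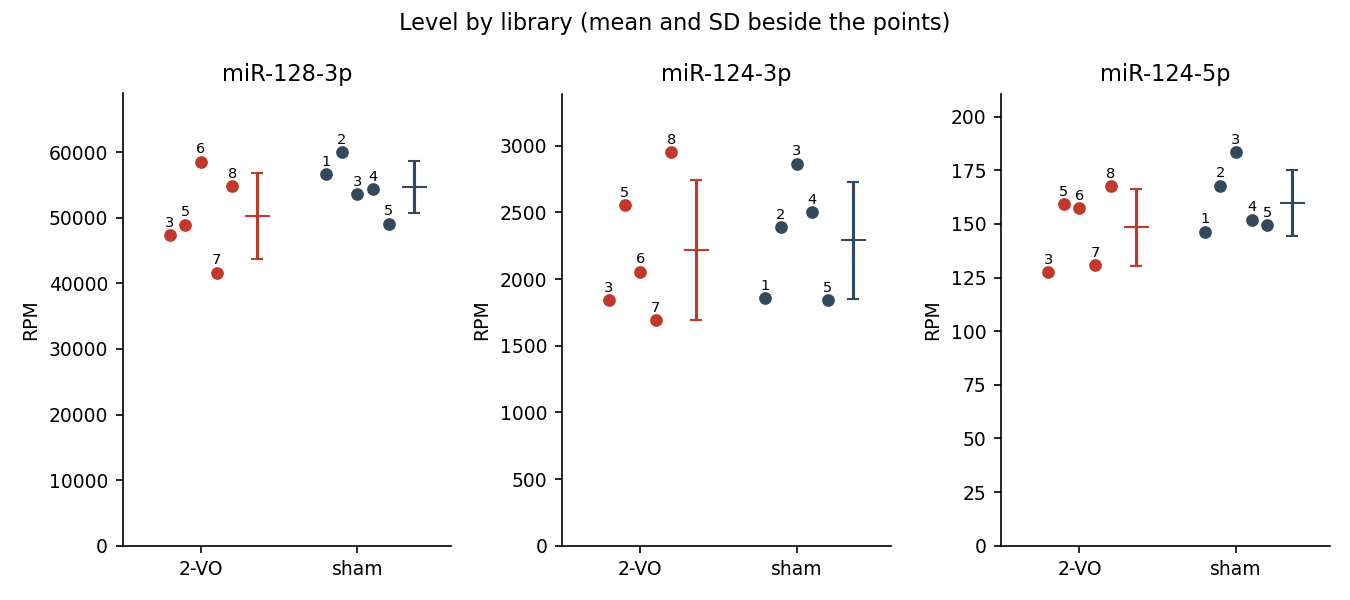
Level in RPM (vertical axis, from 0) of miR-128-3p, miR-124-3p and miR-124-5p in each library, 2-VO left of sham, with the replicate number above each point and the mean ± SD (n = 5) beside it. The groups overlap for each of the 3 miRNAs, and 2-VO replicate 7 is the lowest library for miR-128-3p (41636 RPM) and miR-124-3p (1690.3 RPM).

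The comparison of 2-VO with sham asks whether these neuronal miRNAs differ in the hippocampus after carotid occlusion. None of the 3 passed (limma's moderated test on log2(RPM + 1), two-sided, Benjamini-Hochberg adjustment, threshold 0.05), and neither did any other of the 474 miRNAs tested, a background of 0% (smallest adjusted p = 0.44). Before adjustment, 24 of the 474 miRNAs (5.06%) were past the threshold in limma's test, and no member was among them. The log2 fold change of miR-128-3p was -0.13 ± 0.099 (SE, adjusted p = 0.84 from limma), with a 95% interval from 21.1% lower to 5.91% higher in 2-VO. miR-124-5p had -0.11 ± 0.11 (limma adjusted p = 0.91), from 21.5% lower to 9.44% higher. miR-124-3p had -0.057 ± 0.16 (limma adjusted p = 0.96), from 24.5% lower to 22.5% higher, and its sign turned when scaled to the listed RPM (0.0012) or with TMM factors (0.0075).

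These intervals state how large a change the 5 and 5 libraries leave room for. That of miR-128-3p spanned 0.42 on the log2 scale, and 3.80% of the 474 miRNAs had a narrower one. That of miR-124-5p spanned 0.48 and that of miR-124-3p 0.70, against a median of 0.58 over all miRNAs tested. The median log2 fold change of the 474 miRNAs was -0.051 in RPM and 0.00061 after scaling to the listed RPM. After that scaling miR-128-3p had a log2 fold change of -0.071 and miR-124-5p of -0.052.

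**Figure D2:**
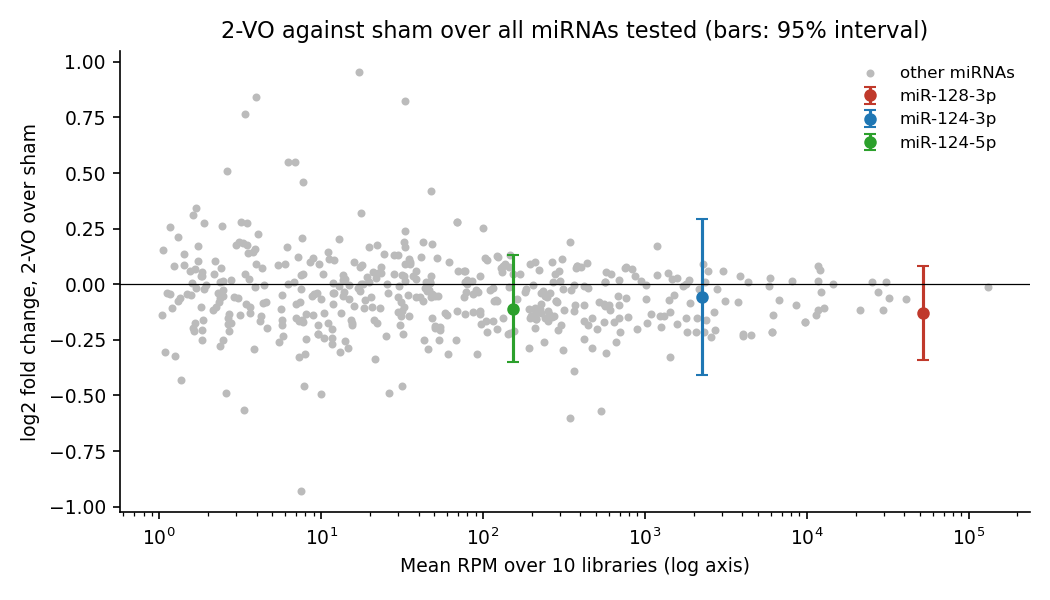
Log2 fold change of 2-VO over sham (vertical axis) against mean RPM over the 10 libraries (horizontal axis, log scale) for the 474 miRNAs tested, with the members in colour and bars for their 95% intervals. The members lie at -0.13, -0.057 and -0.11, each with an interval that holds 0.

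RefSeq names 3 miR-124 genes in the rat and each arm has a single row here, so its reads cannot be assigned to a single hairpin. Arm use of miR-124 was read as the level of the 3p arm per 5p arm within a library, which does not depend on the RPM divisor. It was 14.4, 16.1, 13.1, 12.9 and 17.6 in 2-VO replicates 3, 5, 6, 7 and 8, against 12.7, 14.2, 15.6, 16.5 and 12.3 in sham replicates 1 to 5. The groups overlapped (1.52% of 132 hairpins had groups that did not), and 2-VO replicate 8 had the most one-sided use of the 10 libraries. The 5p arm made up 6.40% ± 0.783 of both arms in 2-VO and 6.62% ± 0.778 in sham libraries (SD, n = 5 each).

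The log2 ratio of 5p to 3p averaged -3.87 ± 0.193 in 2-VO and -3.82 ± 0.183 in sham libraries (SD, n = 5 each). The difference was -0.053 ± 0.12 (SE; limma adjusted p = 0.88 over 132 hairpins), with a 95% interval of -0.30 to 0.20. Of the 132 hairpins 0 passed (0%; smallest limma adjusted p = 0.12), and 15 lay under 0.05 before adjustment (11.4%), miR-124 not among them. The 3p arm was the higher one in 61 of these hairpins, and in 28 of them it exceeded the 5p arm by more than in miR-124.

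miR-128 was far more one-sided. miR-128-1-5p stood at 11.2, 11.5, 12.6, 10.4 and 12.3 RPM in 2-VO replicates 3, 5, 6, 7 and 8, against 11.7, 13.8, 11.9, 12.1 and 10.4 RPM in sham replicates 1 to 5. miR-128-2-5p stood at 9.26, 10.8, 11.1, 9.62 and 11.4 RPM in the same 2-VO libraries, against 13.1, 15.4, 14.7, 12.4 and 8.98 RPM in the sham libraries. Both 5p arms together made 0.0441% ± 0.00292 of the miR-128 reads in 2-VO and 0.0453% ± 0.00411 in sham libraries (SD, n = 5 each), or about 1 5p read for each 2275 ± 149 and 2221 ± 210 reads of the 3p arm.

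The 5p arms, which are not members but tell the 2 hairpins apart, were described after their values were seen. Neither passed, with a log2 fold change of -0.039 ± 0.11 for miR-128-1-5p (limma adjusted p = 0.96), which turned positive under each of the 3 other scalings, and of -0.27 ± 0.14 for miR-128-2-5p (limma adjusted p = 0.76). For miR-128-2-5p, sham replicates 1 to 4 lay above each 2-VO library and sham replicate 5 below each of them. Without sham replicate 5 its log2 fold change was -0.38 (limma adjusted p = 0.46). This was the lowest value when each library was left out in turn (-0.38 to -0.20). miR-128-1-5p made up 52.7% ± 1.28 of both 5p arms in 2-VO and 48.4% ± 3.34 in sham libraries, with sham replicate 5 (53.6%) inside the 2-VO range of 51.5% to 54.6%. These values rest on 117 to 208 reads of either arm per library, where counting error alone gives a coefficient of variation of up to 9.25%.

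**Figure D3:**
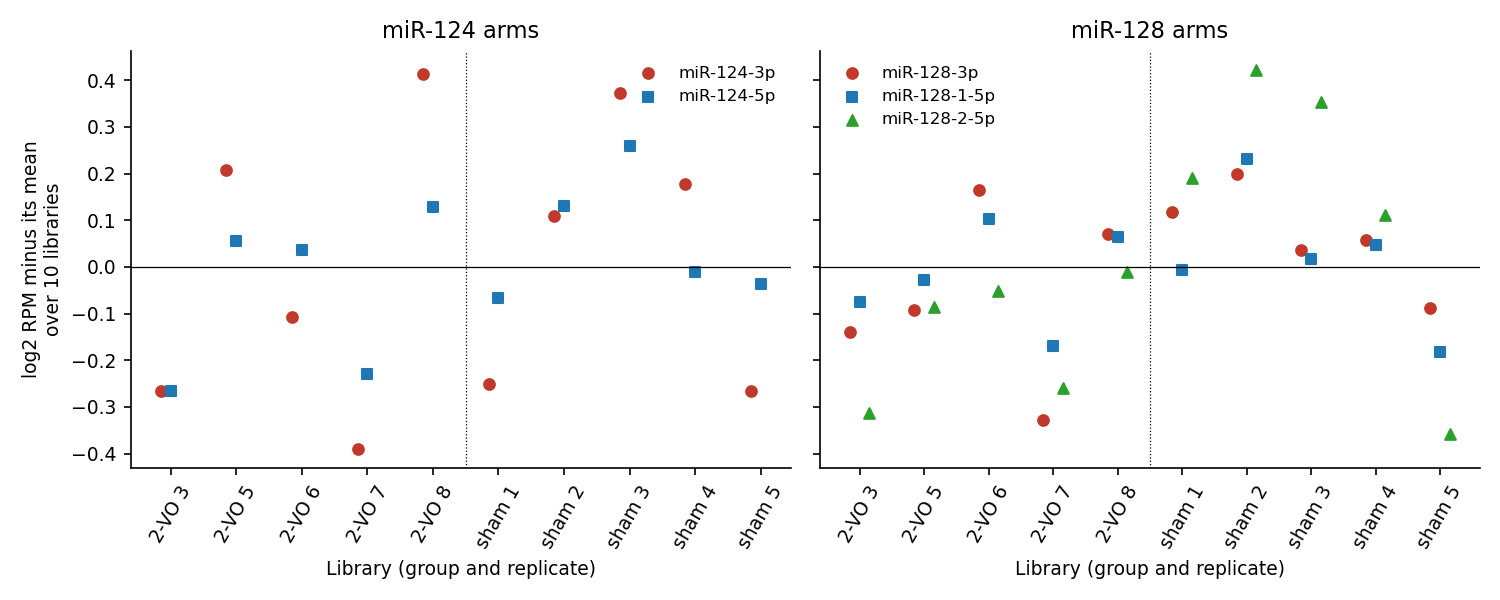
Log2 RPM of each arm minus its own mean over the 10 libraries (vertical axis) by library (horizontal axis, 2-VO left of the dotted line and sham right of it), for miR-124 (left) and miR-128 (right). miR-124-3p moves further between libraries than miR-124-5p, and miR-128-2-5p is above its mean in sham replicates 1 to 4 and below it in sham replicate 5 and the 2-VO libraries.

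The members differed in how much they varied between libraries of one group. The within-group SD of log2 RPM was 0.31 for miR-124-3p, 0.16 for miR-124-5p and 0.15 for miR-128-3p, against a median of 0.20 over the 339 miRNAs of at least 10 RPM. miR-124-3p was thus more variable than 86.4% of these miRNAs and the third most variable of the 71 with at least 1000 RPM (the fifth after scaling to the listed RPM). miR-124-5p was more variable than 23.3% and miR-128-3p than 20.6%. After scaling to the listed RPM the SDs were 0.27, 0.086 and 0.13, for miR-124-3p, miR-124-5p and miR-128-3p.

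miR-128-3p rested on 554225 to 808813 reads per library, miR-124-3p on 22500 to 40819 and miR-124-5p on 1739 to 2405. Counting error alone then gives a coefficient of variation of at most 0.134%, 0.667% and 2.40%, in the same order. The observed values were 13.1%, 23.6% and 12.2% in 2-VO and 7.29%, 19.2% and 9.72% in sham libraries.

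**Figure D4:**
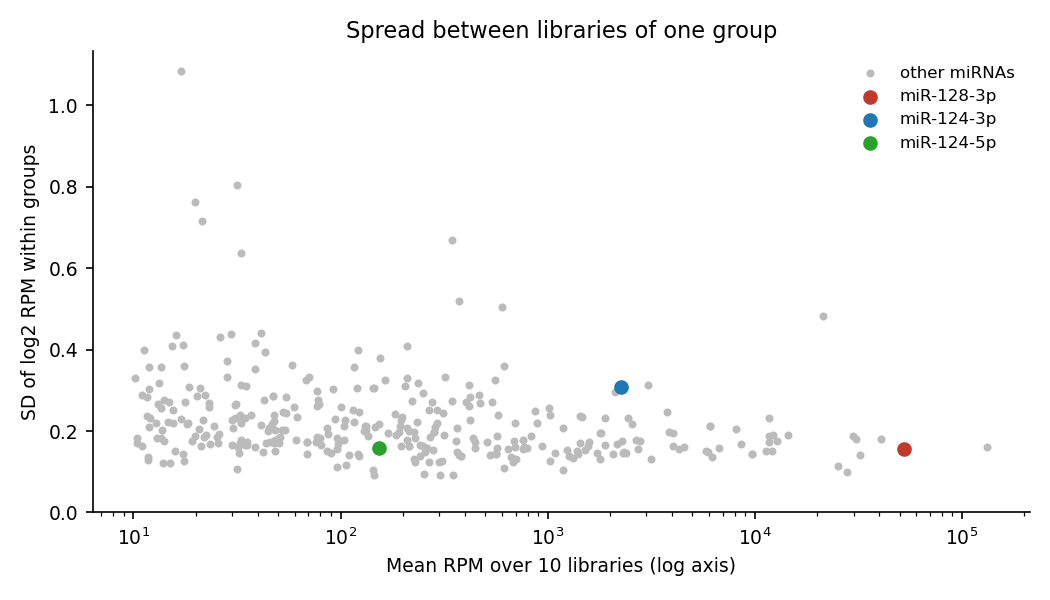
Within-group SD of log2 RPM (vertical axis) against mean RPM (horizontal axis, log scale) for the 339 miRNAs of at least 10 RPM, with the members in colour. miR-124-3p, at 0.31, lies above most miRNAs of its abundance, and miR-124-5p and miR-128-3p, at 0.16 and 0.15, lie below the median of 0.20.

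Likeness between miRNAs was measured as the SD over the 10 libraries of the log2 ratio of their levels, which is small where 2 miRNAs keep a constant ratio and which does not depend on the divisor. It is a description of 10 libraries among 339 miRNAs, with a median of 0.25 over all 57291 pairs. The arms of miR-124 had a value of 0.18, and miR-124-5p was the tenth most like miR-124-3p of the others, while miR-124-3p was number 169 in likeness to miR-124-5p. Counting error alone would give 0.033. miR-124-3p and miR-128-3p had 0.26, so 55.1% of all pairs kept a steadier ratio, and miR-128-3p ran from 18.6-fold to 28.5-fold the level of miR-124-3p in 2-VO and from 18.7-fold to 30.5-fold in sham libraries. miR-124-5p and miR-128-3p had 0.13, and 6.37% of pairs had a smaller value.

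The miRNA most like miR-128-3p was miR-128-1-5p, the other arm of one of its hairpins, and the reverse held too. Their SD was 0.083, below the 0.12 that counting error of the 5p arm gives, and 0.442% of pairs had a smaller one. miR-128-2-5p, from the other hairpin, was number 127 in likeness to miR-128-3p, and miR-128-3p number 27 in likeness to it, with an SD of 0.19, where counting error gives 0.12. Next after miR-128-1-5p came miR-139-3p (0.085) and miR-151-3p (0.091). Given the counting error of the 5p arms, these places cannot tell which hairpin gave the reads of miR-128-3p.

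For miR-124-3p the closest were miR-674-5p (0.14), miR-379-3p (0.15) and miR-411-5p (0.15), of which miR-379-3p and miR-411-5p belong to the imprinted cluster named for miR-379. miR-411-5p was also close to it in level, at 2154 RPM in 2-VO and 2174 RPM in sham libraries. For miR-124-5p they were miR-9b-3p (0.056), and miR-3588 and miR-125b-5p (both 0.061). The last 2 rows hold nearly the same values, 9127 RPM each in 2-VO and 10256 and 10257 RPM in sham libraries, so their reads cannot be assigned to either name. None of these miRNAs passed the comparison of 2-VO with sham.

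The seed of miR-128-3p was searched at the first 4 positions of the 690 listed miRNAs with a RefSeq sequence. It occurred at bases 3 to 9, one base later than in miR-128-3p, in the 2 miR-27 strands, shown here because the overlap lets them pair with many of the same sites (capitals mark the shared 7 bases).
miR-27a-3p: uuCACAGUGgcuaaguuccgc
miR-27b-3p: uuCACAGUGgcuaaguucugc
miR-27b-3p stood at 11737 ± 1011 RPM in 2-VO and 11679 ± 1666 RPM in sham libraries, and miR-27a-3p at 549 ± 81.7 and 585 ± 56.7 RPM (SD, n = 5 each). miR-128-3p thus had 4.09 ± 0.355 times the summed level of both in 2-VO and 4.53 ± 0.695 times in sham libraries. miR-216a-3p, which holds the same bases at positions 1 to 7, was listed at 0 in each library.

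Of 12 other miRNAs enriched in neurons 0 passed, with 5 log2 fold changes above and 7 below 0 and a median of -0.0075, beside -0.051 over all 474 miRNAs. The most abundant were miR-9a-5p (131766 ± 13332 RPM in 2-VO and 133063 ± 14839 RPM in sham libraries), miR-218a-5p of motor and other neurons (14610 ± 2438 and 14461 ± 1106 RPM) and miR-129-5p (5989 ± 791 and 5837 ± 369 RPM; SD, n = 5 each). Their 95% intervals of the log2 fold change ran from -0.23 to 0.20, from -0.24 to 0.24 and from -0.19 to 0.25. The 12 were detected in each library and summed to 131531 to 173572 RPM in 2-VO and 134982 to 175136 RPM in sham libraries. Most of that sum was miR-9a-5p (mean of 132415 RPM over the 10 libraries), so it says little of the others.

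Of the markers of other cells that were tested, 0 passed. miR-96-5p, listed at 0 in each sham library, and miR-223-3p averaged under 1 RPM and were not tested. The 4 oligodendrocyte miRNAs (2 log2 fold changes above and 2 below 0, median -0.014) summed to 1975 to 3442 RPM in 2-VO and 2182 to 3262 RPM in sham libraries, and the 4 of leukocytes and microglia (2 of the 3 tested above 0, median 0.14) to 231 to 295 and 241 to 284 RPM. The 3 of red blood cells (2 above 0, median 0.17) summed to 84.1 to 215 and 130 to 155 RPM. Most of the sum for leukocytes and microglia was miR-150-5p (mean of 229 RPM over the 10 libraries, log2 fold change -0.087). Most of the sum for red blood cells was miR-486 (120 RPM, log2 fold change -0.072). The 7 of choroid plexus and ependyma had 6 log2 fold changes below 0 and a median of -0.33, with miR-204-5p at -0.57 (95% interval -0.89 to -0.25, not adjusted; limma adjusted p = 0.44). They summed to 1088 to 1413 and 1088 to 3029 RPM, highest in sham replicate 5, which also had the lowest share of miR-124-3p in the listed RPM (0.249%). 2-VO replicate 6 had the highest sum of its group (1413 RPM) and a share of 0.263%, as low as any of its group. Some other libraries went the other way. The sums are in RPM and the shares are of the listed RPM, so their scales differ. The lowest sums, 1088 RPM each in sham replicate 1 and 2-VO replicate 7, came with shares of 0.273% and 0.263%, below both group means (0.319%). Sham replicate 3, with a sum of 1603 RPM, had 0.372%. The 9 of other brain regions and epithelium had 7 of the 8 tested above 0 and a median of 0.53. They summed to 41.0 to 127 and 35.4 to 98.9 RPM, highest in 2-VO replicate 3. The part of such cells in the levels of miR-124 and miR-128 was not tested.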

How the data were processed

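The deposited table gives RPM values made by the authors, reads scaled to a library-wide divisor (RPM), for 765 rat miRNAs in 10 libraries. Per the submitters' processing notes, bcl2fastq, BWA and the build rn6 were used. For the annotation, multi-mapping reads and the divisor's make-up, methods were not given in the sources used here. Per the labels' protocols, total RNA from Trizol went through adapter ligation, PCR and gel size selection (NEBNext kit), with no molecular identifiers named, so PCR copies are counted and counting errors cover counting only. Each deposited RPM value above 0 was a whole number of reads, within 0.001 reads, at 1 divisor per library, and the smallest stood for 10 reads, so a listed 0 means fewer than 10 reads (up to 0.767 RPM).

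Values were put on the log2(RPM + 1) scale, keeping the 474 miRNAs that averaged 1 RPM or more, and 2-VO was compared with sham in limma 3.58.1 under R 4.3.3, with a mean-variance trend and no covariate. The 5p to 3p ratio was tested likewise for 132 hairpins with both arms kept. These are the names listed with both a 5p and a 3p arm. Hairpins whose arms are named differently, such as those of miR-128, are not among them. Both fits were run on simulated data in which miRNAs varied independently and some changed by 1 log2 unit. Those runs do not cover shifts shared by a whole library or changes as small as those of the members. Named miRNAs are the 3 members, the other arms of their hairpins, the 3 most like each member, those that hold the seed, and of 12 neuronal miRNAs the 3 most abundant. The members, the 6 lists and the tests were chosen with earlier results of these data known. Replicate numbers 3 and 5 occur in both groups but nothing says that they pair libraries.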

Additional observations from a re-analysis of the deposited data

Results flagged for a closer look

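Of 40 sets of 5 values that varied, 3 held a library far from the other 4 of its group, with a gap to the nearest above 0.71 of the range, where chance gives about 2. miR-124-5p ranked 167 in 2-VO replicate 8, against ranks 171 to 172 in the other 2-VO libraries. It ranked 175 in sham replicate 5, against ranks 166 to 168 in the other sham libraries. miR-27b-3p was lowest in 2-VO replicate 7, at 10001 RPM against 11992 to 12662 RPM in the other 2-VO libraries. The RPM values of miR-128-3p, miR-124-3p and miR-124-5p held no such library.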

How the results depend on the processing

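The log2 fold changes of miR-128-3p and miR-124-5p kept their sign and stayed short of the threshold in the 19 other settings each, with ranges of -0.19 to -0.064 and -0.22 to -0.045. That of miR-124-3p turned sign when scaled to the listed reads (0.0012) and with TMM factors (0.0075), and the miR-124 arm ratio with array weights (0.025); the cause was not tested. Leaving out each library in turn gave -0.17 to 0.033 for miR-124-3p, -0.11 to 0.012 for the arm ratio, -0.38 to -0.20 for miR-128-2-5p and -0.086 to 0.0094 for miR-128-1-5p. The last also turned positive with the replicate block (0.029) and under 3 scalings: median-of-ratios factors (0.011), listed reads (0.014) and TMM factors (0.020). The settings for these 5p arms were added after seeing the data. The replicate block leaves 1 residual degree of freedom, and its fold changes rest on the libraries numbered 3 and 5 alone. With it, the log2 fold changes were -0.091 for miR-128-3p, -0.22 for miR-124-5p and -0.083 for miR-124-3p. Of the 474 miRNAs 8 passed, none of them a member. Libraries that share a number did not deviate together (correlations of -0.058 for number 3 and -0.18 for number 5 over 474 miRNAs). With only 2 shared numbers, these values cannot decide whether the numbers pair libraries. The count of hairpins that passed ran from 0 to 3 when libraries were left out (3 without sham replicate 5, 1 without 2-VO replicate 3), and miR-124 was not among them. The planned count test on whole reads was not run, since counts under 10 are listed as 0. Counting error alone gives a coefficient of variation of up to 9.25% for the 5p arms of miR-128 and 2.40% for the members.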
